A study of Mus musculus with 18 samples.

Results

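The 37 genes described here encode the proteins of glucose uptake, glycolysis, lactate export, the response to low oxygen and the pentose phosphate pathway. They were chosen by function, with earlier results of these data known. The list held 38 gene symbols, of which 37 were among the 11243 genes of the count table. Egln3, which encodes a HIF prolyl hydroxylase, was not among them and was not analysed here. RAW264.7, a line of mouse macrophages grown in culture, was used without genetic modification. Control cells were described as given DMSO, the vehicle, and as untreated in another place. Salmonella enterica LPS (serotype minnesota) was given at 500 ng/mL for 6 h. The third group received torin1, an inhibitor of the mTOR kinase, at 100 nM from 15 min ahead of the same LPS treatment. No group with torin1 alone enters these comparisons, so a torin1 effect here is an effect in LPS-treated cells. Each treatment was made in 3 experiments, and each of the 9 lysates gave 1 library of total mRNA and 1 of polysome-associated mRNA, the latter from pooled heavy polysomes.

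Glycolysis splits glucose into pyruvate and yields ATP without oxygen. Hexokinase, phosphofructokinase and pyruvate kinase catalyse its irreversible steps, and lactate dehydrogenase with the monocarboxylate carriers removes the product. Hypoxia-inducible factor 1 (HIF-1) activates many of these genes, and its α subunit, encoded by Hif1a, is marked for destruction by prolyl hydroxylases and the von Hippel-Lindau protein when oxygen is plentiful. The pentose phosphate pathway branches off at glucose 6-phosphate and supplies NADPH and ribose 5-phosphate. Macrophages are known to shift towards glycolysis after LPS.

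Libraries held between 27800983 and 47725557 counts on the genes of the table. Of 10 macrophage markers 9 were in the table, among them Lyz2 at 4747 to 13253 CPM (counts scaled to a common library size). Of 14 markers of epithelium, fibroblasts, endothelium and lymphocytes only Cdh5 was, at 0.0658 to 1.43 CPM. Levels below are CPM after TMM scaling within an RNA type and are given in the order of experiments 1, 2 and 3. They are relative to the counted reads, so a change in the number of cells or in the whole RNA per cell does not show in them. Changes are log2 fold changes with their standard error from edgeR's quasi-likelihood test. A gene passed with a Benjamini-Hochberg adjusted p of at most 0.25 over all 11243 genes, the threshold of the study. The comparisons share libraries, LPS libraries entering both LPS against control and torin1 against LPS, so their values are set side by side without being compared. Torin1 against LPS and torin1 against control are short for LPS with torin1 against LPS alone and against control cells.

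After LPS, 16 of the 37 genes were higher and 5 lower in total mRNA, where 32.2% of all genes were higher and 34.3% lower. The largest rises were those of Pfkfb3, which activates phosphofructokinase (5.44-fold), the glucose carrier gene Slc2a1 (3.97-fold) and the hexokinase gene Hk2 (2.37-fold), and the largest fall was that of Pdk1 (to 0.517 of control). With torin1 ahead of LPS, 3 genes were higher and 22 lower than with LPS alone, against 27.3% and 26.4% of all genes. Hk3, Slc2a6 and Bnip3l were the 3 that rose, and Vegfa, Bnip3 and Slc16a3 fell most. Against control cells, 7 genes were higher and 17 lower with LPS and torin1, with a background of 33.1% and 33.6%. The median log2 fold change of the 37 genes was 0.19, −0.29 and −0.16 in these comparisons, and that of all genes −0.02, 0.00 and 0.00.

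The polysome-associated mRNA gave 16 higher and 7 lower genes after LPS (background 26.4% and 28.7%), 3 and 18 for torin1 against LPS (20.3% and 18.2%), and 6 and 17 for torin1 against control (28.5% and 29.7%). Its medians were 0.16, −0.28 and −0.14, next to −0.03, 0.00 and −0.01 over all genes. With the experiment number as a block, lower calls after LPS in total mRNA went from 5 to 10, with Slc16a1, Tpi1, Pgd, Pgls and Tkt added, and higher calls from 16 to 20, with Hk1, Pfkl, Aldoa and Ldha added. The background of the blocked fit was 35.3% higher and 37.8% lower. Without experiment 1 the calls after LPS in polysome-associated mRNA fell from 23 to 15, without experiment 3 to 14, and without experiment 3 those for torin1 against control fell from 23 to 15. The share of all genes called fell as well, from 55.1% to 34.7% and 37.6% after LPS, and from 58.2% to 37% for torin1 against control. Calls for torin1 against LPS fell from 21 to 15 without experiment 1 and to 14 without experiment 3. The share of all genes called there fell from 38.4% to 15.8% and 10.6%.

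**Figure D1:**
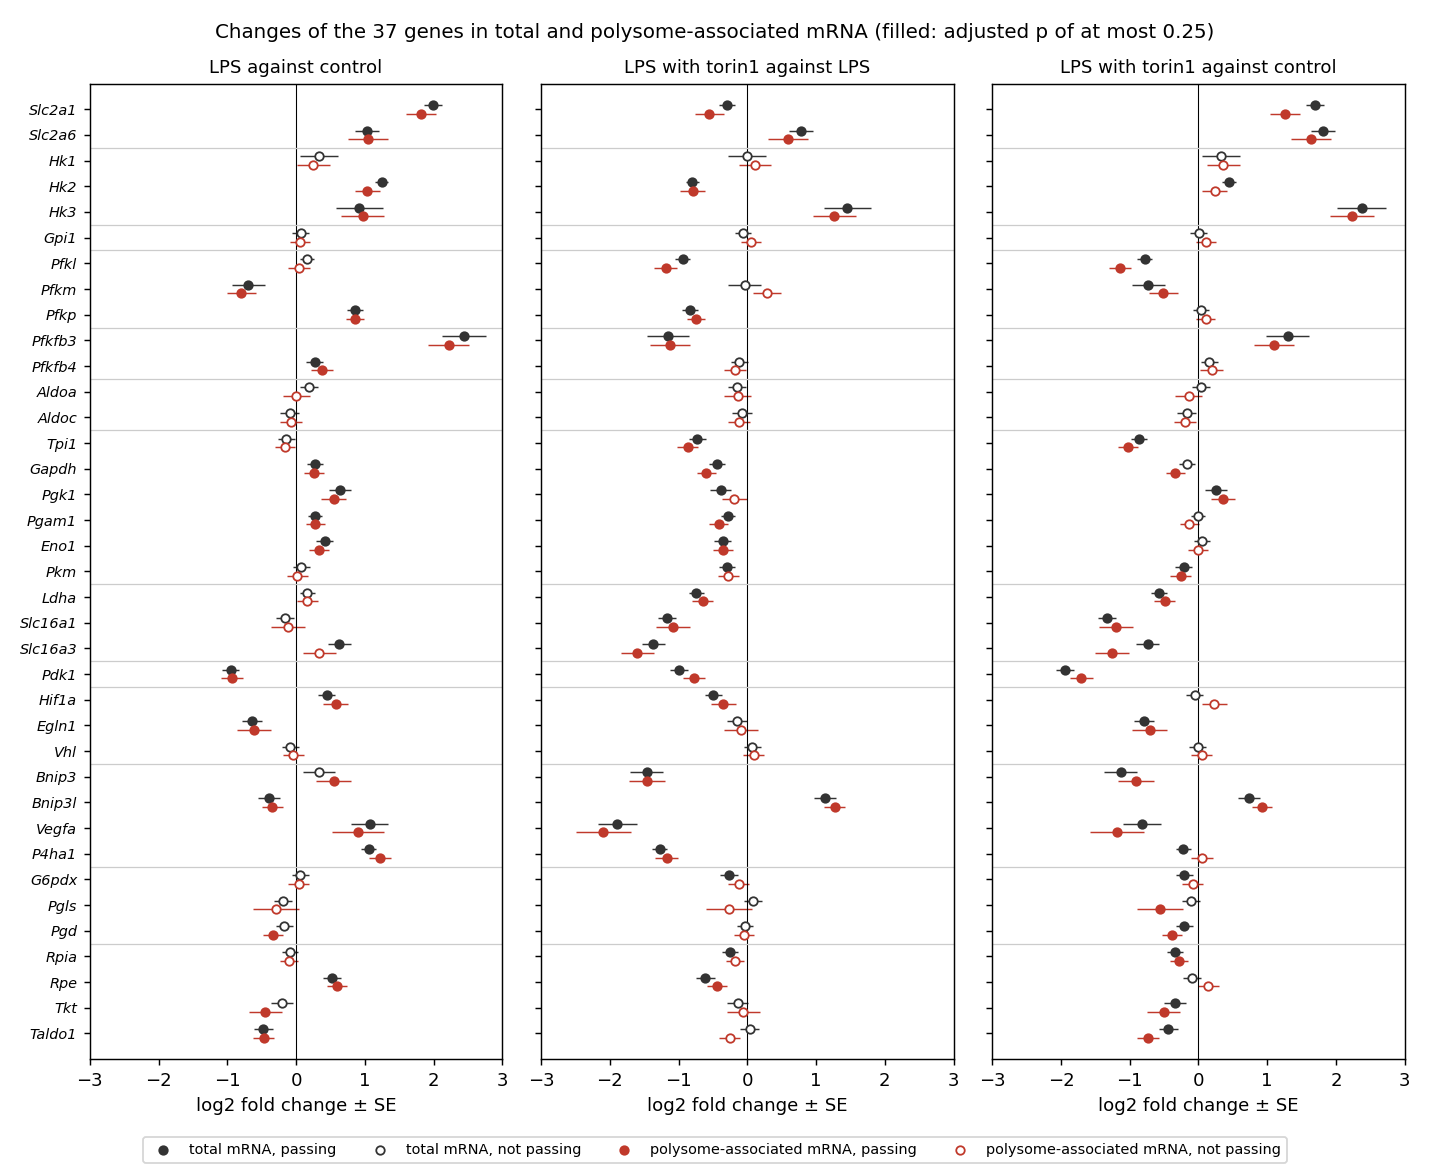
Log2 fold change with its standard error (x axis) of each of the 37 genes (grouped by role) in the 3 comparisons, for total mRNA (black) and polysome-associated mRNA (red). Filled points have an adjusted p of at most 0.25. In the middle panel 22 genes pass to the left of 0 in total mRNA, and Slc2a6, Hk3 and Bnip3l pass to the right of it.

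Together the 37 genes made up 12291 to 14037 CPM of total mRNA in the controls, 14363 to 15636 after LPS and 10895 to 12757 after LPS with torin1. The range with LPS lay above both others. In polysome-associated mRNA the sums were 11881 to 13839.5, 13170.4 to 14431 and 10280.4 to 11706 CPM, and those of control and LPS overlapped. Per kilobase of exon, Pkm was the most abundant of the genes in every group, at 860.3 ± 70.8 CPM per kilobase (SD, n = 3) in total mRNA of control cells. Ldha followed at 419 ± 48.8 and Aldoa at 402 ± 22.2, levels that differed by less than their spread. Vegfa was the least abundant in these control libraries, at 1.31 ± 0.191. In total mRNA with LPS, Pfkm was lowest at 2.45 ± 0.814, next to Vegfa at 2.75 ± 1.04, a difference smaller than their spread.

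HIF-1 binds the core ACGTG or GCGTG of the hypoxia response element. RefSeq (build GRCm38.p6) gave the 250 bases ahead of a transcription start for 36 of the 37 genes, Bnip3l being without one, and for 8568 genes of the table. The core was found on either strand in 40 of the 51 promoters of the 36 genes (78.4%) and in 56.4% of the 10924 promoters of all genes. At least 1 promoter held it in 32 of the 36 genes (88.9%) and in 62.5% of all 8568. The E-box CACGTG, which contains the core, was in 6 of the 51 promoters (11.8%) and in 8.53% of all. A match describes the sequence and is not evidence of binding. The promoters of the 3 genes with the largest rise after LPS and of Hk3 and Slc2a6, which rose further with torin1, are given 5′ to 3′ on the strand of the gene, from the most upstream start in RefSeq, with the core in capitals.
Pfkfb3, chr2:11553930-11554179 (- strand): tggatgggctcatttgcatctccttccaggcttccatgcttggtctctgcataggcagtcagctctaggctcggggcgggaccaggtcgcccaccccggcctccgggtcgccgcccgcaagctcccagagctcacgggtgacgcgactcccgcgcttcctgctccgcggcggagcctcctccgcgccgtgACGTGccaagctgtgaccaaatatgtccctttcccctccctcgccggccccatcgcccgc
Slc2a1, chr4:119108495-119108744 (+ strand): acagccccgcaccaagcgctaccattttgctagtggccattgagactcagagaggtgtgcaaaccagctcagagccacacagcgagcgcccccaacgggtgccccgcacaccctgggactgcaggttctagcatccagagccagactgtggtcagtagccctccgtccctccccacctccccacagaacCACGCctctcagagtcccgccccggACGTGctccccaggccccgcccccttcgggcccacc
Hk2, chr6:82774455-82774704 (- strand): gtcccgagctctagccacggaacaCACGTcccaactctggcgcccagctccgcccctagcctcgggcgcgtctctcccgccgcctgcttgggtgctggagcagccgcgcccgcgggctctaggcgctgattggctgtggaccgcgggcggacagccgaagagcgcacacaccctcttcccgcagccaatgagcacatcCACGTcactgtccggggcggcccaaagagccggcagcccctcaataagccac
Hk3, chr13:55021386-55021635 (- strand): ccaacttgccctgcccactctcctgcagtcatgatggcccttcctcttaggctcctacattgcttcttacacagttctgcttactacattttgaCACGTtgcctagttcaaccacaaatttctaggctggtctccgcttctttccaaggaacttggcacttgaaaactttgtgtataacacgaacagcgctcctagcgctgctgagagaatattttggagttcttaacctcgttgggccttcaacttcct
Slc2a6, chr2:27027999-27028248 (- strand): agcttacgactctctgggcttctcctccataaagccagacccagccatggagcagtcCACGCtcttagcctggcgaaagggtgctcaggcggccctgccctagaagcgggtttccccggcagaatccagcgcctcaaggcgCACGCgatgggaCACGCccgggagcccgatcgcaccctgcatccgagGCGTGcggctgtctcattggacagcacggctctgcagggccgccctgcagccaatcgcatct
Of these printed promoters, that of Slc2a6 held 4 cores, those of Slc2a1 and Hk2 held 2 each, and those of Pfkfb3 and Hk3 held 1 each. Another promoter of Pfkfb3 in RefSeq, further downstream, held 3 core matches over both strands. Its 1 CACGTG reads the same on both strands and was counted once on each.

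Slc2a1 encodes GLUT1, the main glucose carrier of many cells. Its level in total mRNA was 102.7, 83.3 and 98.6 CPM in the controls, 352, 382 and 396 after LPS and 269, 305 and 347 after LPS with torin1. All LPS libraries lay above all control libraries, and the libraries with torin1 lay between them. LPS changed it by 1.99 ± 0.13 (SE, adjusted p = 1.96e-06), and torin1 with LPS by −0.29 ± 0.12 (SE, adjusted p = 0.0978) against LPS and 1.69 ± 0.13 (SE, adjusted p = 3.77e-06) against control. In polysomes its level was 152, 81.4 and 131.2 CPM in the controls, 487, 399 and 391.8 after LPS and 282, 307 and 284 after LPS with torin1, the groups again without overlap. The corresponding changes were 1.81 ± 0.22 (SE, adjusted p = 0.000154), −0.55 ± 0.21 (SE, adjusted p = 0.112) and 1.26 ± 0.22 (SE, adjusted p = 0.00120). For Slc2a1, the call was lost in polysome-associated mRNA for torin1 against LPS without experiment 1 or 3, at −0.42 and −0.58 (adjusted p from 0.423 to 0.451). In one model over all libraries the decrease with torin1 in total mRNA did not pass (adjusted p = 0.258).

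Slc2a6 encodes GLUT6, a carrier of the same family found on lysosomes. Its total mRNA stood at 78.6, 94.3 and 72.2 CPM in the controls, 139, 214 and 149.8 after LPS and 268, 326 and 266 after LPS with torin1. It rose with LPS by 1.04 ± 0.17 (SE, adjusted p = 0.000810), and with torin1 it was higher again by 0.78 ± 0.17 (SE, adjusted p = 0.00863), which put it 3.51-fold above control (adjusted p = 2.16e-05). None of the 3 groups overlapped. Polysome-associated Slc2a6 was at 155, 112.7 and 109.2 CPM in the controls, 294, 299 and 184 after LPS and 335, 567 and 269 after LPS with torin1. Here the libraries with LPS and with torin1 overlapped, and the changes were 1.05 ± 0.29 (SE, adjusted p = 0.0186), 0.59 ± 0.29 (SE, adjusted p = 0.198) and 1.64 ± 0.30 (SE, adjusted p = 0.00163). For Slc2a6, the call was lost in polysome-associated mRNA for torin1 against LPS without experiment 1, 2 or 3, at 0.79, 0.34 and 0.62 (adjusted p from 0.341 to 0.375). Of the per-kilobase level of both carriers in total mRNA, Slc2a1 made up 51.6% ± 5.97 (SD, n = 3) in the controls, 67.6% ± 4.79 after LPS and 49.5% ± 4.38 after LPS with torin1.

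Hexokinases trap glucose in the cell as glucose 6-phosphate. Hk2 encodes the inducible isozyme bound to mitochondria, and its total mRNA was 139, 134.9 and 123.8 CPM in the controls, 288, 327 and 326 after LPS and 178, 187 and 175 after LPS with torin1. The LPS libraries were the highest, and the libraries with torin1 lay between LPS and control without overlap. LPS raised it by 1.24 ± 0.10 (SE, adjusted p = 5.8e-06), torin1 changed it by −0.80 ± 0.10 (SE, adjusted p = 0.000380) from there, and it stayed above control by 0.45 ± 0.10 (SE, adjusted p = 0.00316). In polysomes it was 131.7, 86.8 and 83.9 CPM in the controls, 193, 215 and 212 after LPS and 119.7, 127.7 and 109.8 after LPS with torin1. Changes there were 1.04 ± 0.18 (SE, adjusted p = 0.00165) with LPS and −0.80 ± 0.18 (SE, adjusted p = 0.0178) for torin1 against LPS, while the difference between torin1 and control was 0.24 ± 0.18 (SE, adjusted p = 0.332) and did not pass.

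Hk3, the isozyme most found in myeloid cells, had total levels of 36.996, 71.5 and 54.7 CPM in the controls, 62.5, 158 and 87.8 after LPS and 206, 355 and 286 after LPS with torin1. The libraries with torin1 lay above all others, whereas control and LPS overlapped, since control experiment 2 exceeded LPS experiment 1. Its log2 fold change was 0.92 ± 0.34 (SE, adjusted p = 0.0490) with LPS, 1.46 ± 0.34 (SE, adjusted p = 0.0110) for torin1 against LPS and 2.37 ± 0.36 (SE, adjusted p = 0.000347) against control. Polysome-associated Hk3 was at 48.5, 60.6 and 56.0 CPM in the controls, 83.9, 161 and 78.2 after LPS and 189.5, 368 and 219 after LPS with torin1, with changes of 0.97 ± 0.31 (SE, adjusted p = 0.0346), 1.26 ± 0.31 (SE, adjusted p = 0.0236) and 2.23 ± 0.32 (SE, adjusted p = 0.000410). Experiment 2 gave the highest value in each of the 6 groups. Without it the rise with LPS in polysome-associated mRNA was 0.63 (adjusted p = 0.0110). Hk3 overlaps Unc5a on the other strand. Hk1, the broadly expressed isozyme, ranged in total mRNA from 99.3 to 157 CPM in the controls, 105.2 to 219 after LPS and 114.2 to 199 after LPS with torin1, and passed in none of the comparisons of either RNA type. Hk1, with the experiment as a block, passed as higher for LPS against control (adjusted p = 0.0622) and as higher for torin1 against control (adjusted p = 0.0530) in total mRNA.

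Shares of the 3 isozymes describe the makeup of the hexokinase transcripts in each treatment. Per kilobase of exon, Hk2 was 43.1% ± 7.48 of their total mRNA in the controls, 54.1% ± 9.01 after LPS and 24.6% ± 4.89 after LPS with torin1 (SD, n = 3). Hk3 was 27.8% ± 5.58, 27.0% ± 6.88 and 60.3% ± 3.73. In polysomes the share of Hk3 was 36.4% ± 6.29, 37.9% ± 7.68 and 67.6% ± 5.28. In both RNA types every library with torin1 had more Hk3 than Hk2, and in total mRNA every control and LPS library had more Hk2 than Hk3. Shares between isozymes depend on the length used. With the longest transcript in place of all exons, Hk1 led in control total mRNA at 42.4% ahead of Hk2 at 34.3%, and with torin1 Hk3 led at 54.9%.

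**Figure D2:**
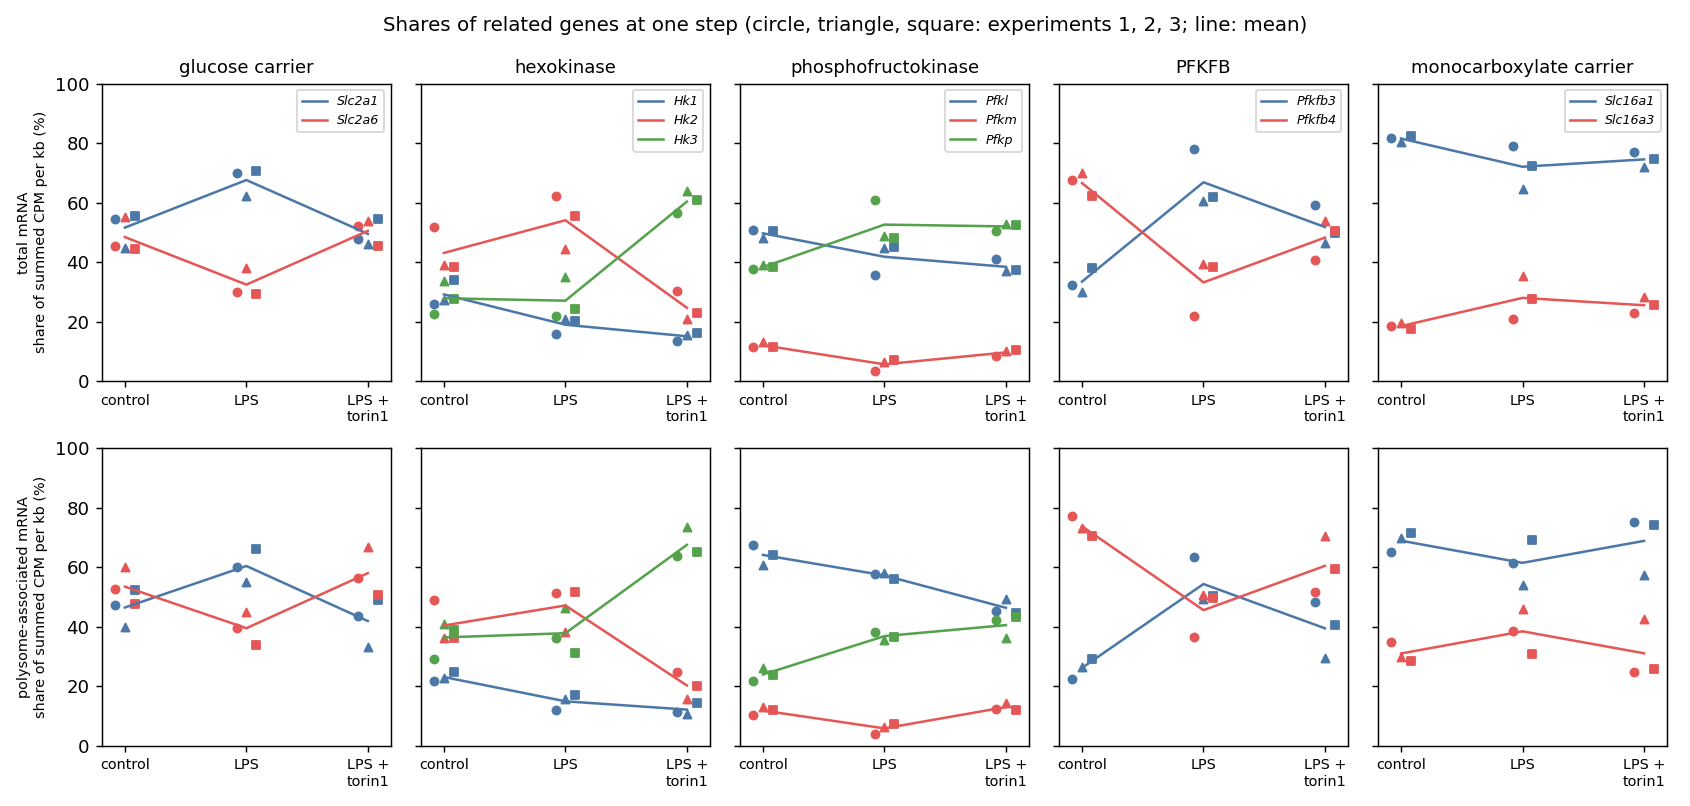
Share (y axis, %) of each gene in the summed CPM per kilobase of genes at one step, in total mRNA (top) and polysome-associated mRNA (bottom), by treatment (x axis). Points are libraries, with a symbol for each experiment, and lines join the means. The hexokinase panels show the share of Hk3 rising above that of Hk2 with LPS and torin1.

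Phosphofructokinase commits sugar to glycolysis. Its platelet-type subunit gene Pfkp had total levels of 162, 177 and 169 CPM in the controls, 354, 296 and 273 after LPS and 159, 182 and 178 after LPS with torin1. LPS libraries were above all others, and control and torin1 libraries overlapped. The changes were 0.86 ± 0.12 (SE, adjusted p = 0.000185) with LPS, −0.83 ± 0.12 (SE, adjusted p = 0.000801) for torin1 against LPS and 0.03 ± 0.12 (SE, adjusted p = 0.846) against control. Pfkp in polysomes was at 107.5, 97.2 and 96.2 CPM in the controls, 200.2, 172 and 171 after LPS and 109.5, 99.1 and 114.6 after LPS with torin1. It changed there by 0.85 ± 0.13 (SE, adjusted p = 0.000828), −0.75 ± 0.13 (SE, adjusted p = 0.00602) and 0.10 ± 0.13 (SE, adjusted p = 0.578). The liver-type gene Pfkl did not pass after LPS, with 0.16 ± 0.11 (SE, adjusted p = 0.255) in total mRNA. Pfkl, with the experiment as a block, passed as higher for LPS against control (adjusted p = 0.196) in total mRNA. Torin1 against LPS gave −0.94 ± 0.11 (SE, adjusted p = 0.000293) in total and −1.19 ± 0.16 (SE, adjusted p = 0.00181) in polysome-associated mRNA, with libraries at 62.9 to 64.0 CPM against 103.4 to 134.96 in total mRNA. The muscle-type gene Pfkm, the rarest of the 3 per kilobase, was 13.3 ± 1.37 CPM in the controls, 8.19 ± 2.72 after LPS and 7.998 ± 1.199 after LPS with torin1 (SD, n = 3). It fell with LPS, changing by −0.69 ± 0.24 (SE, adjusted p = 0.0344) in total and by −0.80 ± 0.21 (SE, adjusted p = 0.0138) in polysome-associated mRNA. Torin1 against control gave −0.73 ± 0.24 (SE, adjusted p = 0.0268) and −0.51 ± 0.21 (SE, adjusted p = 0.0785) for Pfkm. Per kilobase, Pfkp made up 38.3% ± 0.577 of the phosphofructokinase transcripts in total mRNA of the controls, 52.6% ± 7.12 after LPS and 52.0% ± 1.22 after LPS with torin1. For Pfkm, the call was lost in polysome-associated mRNA for torin1 against control without experiment 3, at −0.45 (adjusted p = 0.346). Pfkp and Pfkm overlap coding genes on the other strand, Pitrm1 and Senp1.

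Pfkfb3 encodes a kinase that makes fructose 2,6-bisphosphate, the allosteric activator of phosphofructokinase. It had the largest rise with LPS of the 37 genes in both RNA types. Its total levels were 18.3, 20.4 and 21.3 CPM in the controls, 174, 71.7 and 81.1 after LPS and 63.6, 41.0 and 42.7 after LPS with torin1, with no overlap between groups. Experiment 1 with LPS stood well above the other two. LPS raised Pfkfb3 by 2.44 ± 0.32 (SE, adjusted p = 0.000146), and torin1 changed it by −1.15 ± 0.30 (SE, adjusted p = 0.0179) against LPS, to a level 2.45-fold above control (adjusted p = 0.00573). Without experiment 1 the rise with LPS was 1.89 (adjusted p = 0.000144). Polysome-associated Pfkfb3 followed at 17.7, 20.3 and 19.5 CPM in the controls, 133.4, 65.9 and 68.2 after LPS and 55.3, 30.3 and 37.5 after LPS with torin1. There it changed by 2.22 ± 0.30 (SE, adjusted p = 0.000332), −1.12 ± 0.29 (SE, adjusted p = 0.0304) and 1.10 ± 0.29 (SE, adjusted p = 0.0144). Pfkfb4, a second gene of this enzyme family, rose with LPS by 0.27 ± 0.12 (SE, adjusted p = 0.0981) in total and 0.37 ± 0.16 (SE, adjusted p = 0.101) in polysome-associated mRNA and passed in neither torin1 comparison. Pfkfb4, with the experiment as a block, passed as higher for torin1 against control (adjusted p = 0.249) in total mRNA. For Pfkfb4, calls were lost in total mRNA for LPS against control without experiment 1 or 3, at 0.24 and 0.15, and in polysome-associated mRNA for LPS against control without experiment 1 or 3, at 0.39 and 0.31 (adjusted p from 0.298 to 0.506). Without experiment 2 the rise of Pfkfb4 in total mRNA was 0.44. Pfkfb3 made up 33.4% ± 4.05 of both transcripts per kilobase in total mRNA of control cells and 66.8% ± 9.76 with LPS.

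Of the genes for the reversible steps around phosphofructokinase, Gpi1, which encodes the isomerase at the head of the pathway, and the aldolase genes Aldoa and Aldoc passed in no comparison without a block, with log2 fold changes after LPS in total mRNA of 0.06, 0.19 and −0.10. Aldoa, with the experiment as a block, passed as higher for LPS against control (adjusted p = 0.107) and as lower for torin1 against LPS (adjusted p = 0.202) in total mRNA. Aldoc, with the experiment as a block, passed as lower for torin1 against control (adjusted p = 0.174) in total mRNA. Tpi1, the triose isomerase gene, did not pass after LPS, with −0.14 ± 0.12 (SE, adjusted p = 0.361), and with torin1 was at 336 to 407 CPM of total mRNA against 600.4 to 635 with LPS alone. That was a change of −0.72 ± 0.12 (SE, adjusted p = 0.00186), with −0.87 ± 0.15 (SE, adjusted p = 0.00487) in polysome-associated mRNA. Tpi1, with the experiment as a block, passed as lower for LPS against control (adjusted p = 0.218) in total mRNA. Pgk1, the first ATP-making kinase of the pathway, rose with LPS by 0.64 ± 0.16 (SE, adjusted p = 0.00711) and changed with torin1 by −0.39 ± 0.16 (SE, adjusted p = 0.0882) in total mRNA. In polysome-associated mRNA it rose with LPS by 0.55 ± 0.18 (SE, adjusted p = 0.0382), and the torin1 difference of −0.19 did not pass (adjusted p = 0.519). For torin1 against control Pgk1 was higher, with 0.25 ± 0.16 (SE, adjusted p = 0.213) in total and 0.36 ± 0.18 (SE, adjusted p = 0.144) in polysome-associated mRNA.

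The genes of the next steps, Gapdh, Pgam1 and Eno1, were higher with LPS, and lower with torin1 than with LPS, in both RNA types. In total mRNA Gapdh changed by 0.28 and −0.44, the mutase gene Pgam1 by 0.28 and −0.28, and the enolase gene Eno1 by 0.41 and −0.36. In polysome-associated mRNA the changes were 0.26 and −0.59 for Gapdh, 0.28 and −0.41 for Pgam1, and 0.34 and −0.35 for Eno1. The largest adjusted p among these was 0.192. Against control the only call among the 3 genes was that of Gapdh in polysome-associated mRNA, at −0.34 ± 0.14 (SE, adjusted p = 0.0906). Gapdh, with the experiment as a block, passed as lower for torin1 against control (adjusted p = 0.232) in total mRNA. Pkm, the pyruvate kinase gene, was at 3905, 4582 and 4420.1 CPM in the controls, 4261, 4541 and 4816 after LPS and 3282, 3847 and 3987 after LPS with torin1 in total mRNA. Control and LPS libraries overlapped, and torin1 libraries lay below the LPS libraries. Its changes were 0.08 ± 0.12 (SE, adjusted p = 0.629), −0.29 ± 0.12 (SE, adjusted p = 0.0911) and −0.22 ± 0.12 (SE, adjusted p = 0.164). In polysomes Pkm was at 3988, 3163 and 3441 CPM in the controls, 3846, 3194 and 3688 after LPS and 3181, 2863 and 2818 after LPS with torin1, and it changed by 0.02 ± 0.16 (SE, adjusted p = 0.942), −0.28 ± 0.16 (SE, adjusted p = 0.265) and −0.26 ± 0.16 (SE, adjusted p = 0.227), of which only the last passed. Gene counts do not separate the M1 and M2 splice forms of Pkm.

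Several of these calls were lost when 1 experiment was left out, and the log2 fold change without it is given in each case. For Gapdh, calls were lost in total mRNA for LPS against control without experiment 3, at 0.12, and in polysome-associated mRNA for LPS against control without experiment 2 or 3, at 0.21 and 0.16, and in polysome-associated mRNA for torin1 against control without experiment 1, at −0.20 (adjusted p from 0.364 to 0.678). For Pgk1, calls were lost in total mRNA for torin1 against LPS without experiment 1 or 3, at −0.23 and −0.42, and in total mRNA for torin1 against control without experiment 1 or 3, at 0.25 and 0.21, and in polysome-associated mRNA for LPS against control without experiment 1 or 3, at 0.48 and 0.38, and in polysome-associated mRNA for torin1 against control without experiment 1 or 3, at 0.26 and 0.23 (adjusted p from 0.264 to 0.596). For Pgam1, calls were lost in total mRNA for LPS against control without experiment 3, at 0.24, and in polysome-associated mRNA for LPS against control without experiment 1, 2 or 3, at 0.34, 0.19 and 0.32, and in polysome-associated mRNA for torin1 against LPS without experiment 1 or 3, at −0.34 and −0.45 (adjusted p from 0.272 to 0.395). For Eno1, calls were lost in total mRNA for torin1 against LPS without experiment 3, at −0.31, and in polysome-associated mRNA for LPS against control without experiment 3, at 0.27, and in polysome-associated mRNA for torin1 against LPS without experiment 1 or 3, at −0.34 and −0.25 (adjusted p from 0.302 to 0.658). For Pkm, calls were lost in total mRNA for torin1 against LPS without experiment 3, at −0.30, and in total mRNA for torin1 against control without experiment 1, 2 or 3, at −0.19, −0.20 and −0.25, and in polysome-associated mRNA for torin1 against control without experiment 1 or 3, at −0.22 and −0.22 (adjusted p from 0.279 to 0.607). In one model over all libraries the call of Pgk1 in total mRNA for torin1 against control did not pass (adjusted p = 0.267). That of Pkm in polysome-associated mRNA for torin1 against control did not pass with RLE size factors (adjusted p = 0.254) or with only those 2 treatments in the model (adjusted p = 0.276). Gapdh, Aldoa, Pgk1, Pgam1, Ldha, Vhl and Bnip3l have annotated pseudogenes of their name, and Eno1 has a close copy. Reads of these genes may have been split or lost. Gapdh, Aldoa, Tpi1 and Rpe overlap coding genes on the other strand, Iffo1, Fam57b, Spsb2 and Kansl1l. Gapdh was counted at 70.9 to 130.8 CPM in the 18 libraries.

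Ldha encodes the lactate dehydrogenase subunit that favours lactate formation. Its total levels were 1283, 1574 and 1307 CPM in the controls, 1517, 1554 and 1592 after LPS and 853, 990.0 and 949 after LPS with torin1. Control and LPS libraries overlapped, and the libraries with torin1 lay below both. LPS changed it by 0.16 ± 0.11 (SE, adjusted p = 0.263), which did not pass, and torin1 by −0.74 ± 0.11 (SE, adjusted p = 0.00139) against LPS and −0.58 ± 0.11 (SE, adjusted p = 0.00192) against control. In polysomes Ldha was at 1452, 1484 and 1218 CPM in the controls, 1733, 1409.7 and 1499 after LPS and 1043, 1005 and 909.8 after LPS with torin1. The torin1 groups were again the lowest, with changes of 0.16 ± 0.15 (SE, adjusted p = 0.463), −0.65 ± 0.15 (SE, adjusted p = 0.0200) and −0.49 ± 0.15 (SE, adjusted p = 0.0290). Ldha, with the experiment as a block, passed as higher for LPS against control (adjusted p = 0.146) in total mRNA. For Ldha, the call was lost in polysome-associated mRNA for torin1 against LPS without experiment 3, at −0.60 (adjusted p = 0.266).

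The lactate carriers fell with torin1. Slc16a3 encodes MCT4, the exporter of glycolytic cells, and was at 114.5, 101.9 and 108.04 CPM in the controls, 123.6, 213 and 165 after LPS and 62.5, 64.1 and 67.7 after LPS with torin1 in total mRNA. Its groups did not overlap, LPS being highest and torin1 lowest. It rose with LPS by 0.63 ± 0.17 (SE, adjusted p = 0.0103), and was lower with torin1, changing by −1.37 ± 0.17 (SE, adjusted p = 0.000442) against LPS and by −0.74 ± 0.17 (SE, adjusted p = 0.00417) against control. Without experiment 2 the rise with LPS was 0.38 (adjusted p = 0.105). Polysome-associated Slc16a3 was at 271, 148 and 215 CPM in the controls, 286, 299 and 215 after LPS and 87.3, 107.5 and 70.1 after LPS with torin1, where control and LPS overlapped. The change with LPS was 0.34 ± 0.24 (SE, adjusted p = 0.316) and did not pass, and those with torin1 were −1.60 ± 0.25 (SE, adjusted p = 0.00292) and −1.26 ± 0.24 (SE, adjusted p = 0.00248). Slc16a1, which encodes MCT1, did not pass after LPS and fell with torin1 to 159 ± 20.2 CPM from 358 ± 31.9 with LPS (SD, n = 3, total mRNA), a change of −1.17 ± 0.13 (SE, adjusted p = 0.000251). In polysome-associated mRNA it changed by −1.08 ± 0.25 (SE, adjusted p = 0.0173). Slc16a1, with the experiment as a block, passed as lower for LPS against control (adjusted p = 0.0988) in total mRNA. Against control cells Slc16a1 was 0.398-fold in total mRNA (adjusted p = 2.11e-05).

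Pdk1 encodes a kinase that switches off pyruvate dehydrogenase and is a known HIF-1 target. It was lower with LPS and lower again with torin1. Its total levels were 77.9, 86.3 and 80.9 CPM in the controls, 41.8, 38.1 and 46.8 after LPS and 17.998, 21.0 and 24.9 after LPS with torin1, and its polysome-associated levels 70.9, 81.7 and 81.9 CPM in the controls, 40.7, 34.2 and 48.4 after LPS and 24.4, 21.8 and 25.9 after LPS with torin1. In both RNA types the 3 groups were apart, in the order control, LPS, LPS with torin1. The changes in total mRNA were −0.95 ± 0.13 (SE, adjusted p = 0.000183), −0.99 ± 0.13 (SE, adjusted p = 0.000599) and −1.94 ± 0.13 (SE, adjusted p = 2.13e-06). Those in polysome-associated mRNA were −0.93 ± 0.16 (SE, adjusted p = 0.00145), −0.78 ± 0.16 (SE, adjusted p = 0.0114) and −1.70 ± 0.16 (SE, adjusted p = 3.29e-05).

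**Figure D3:**
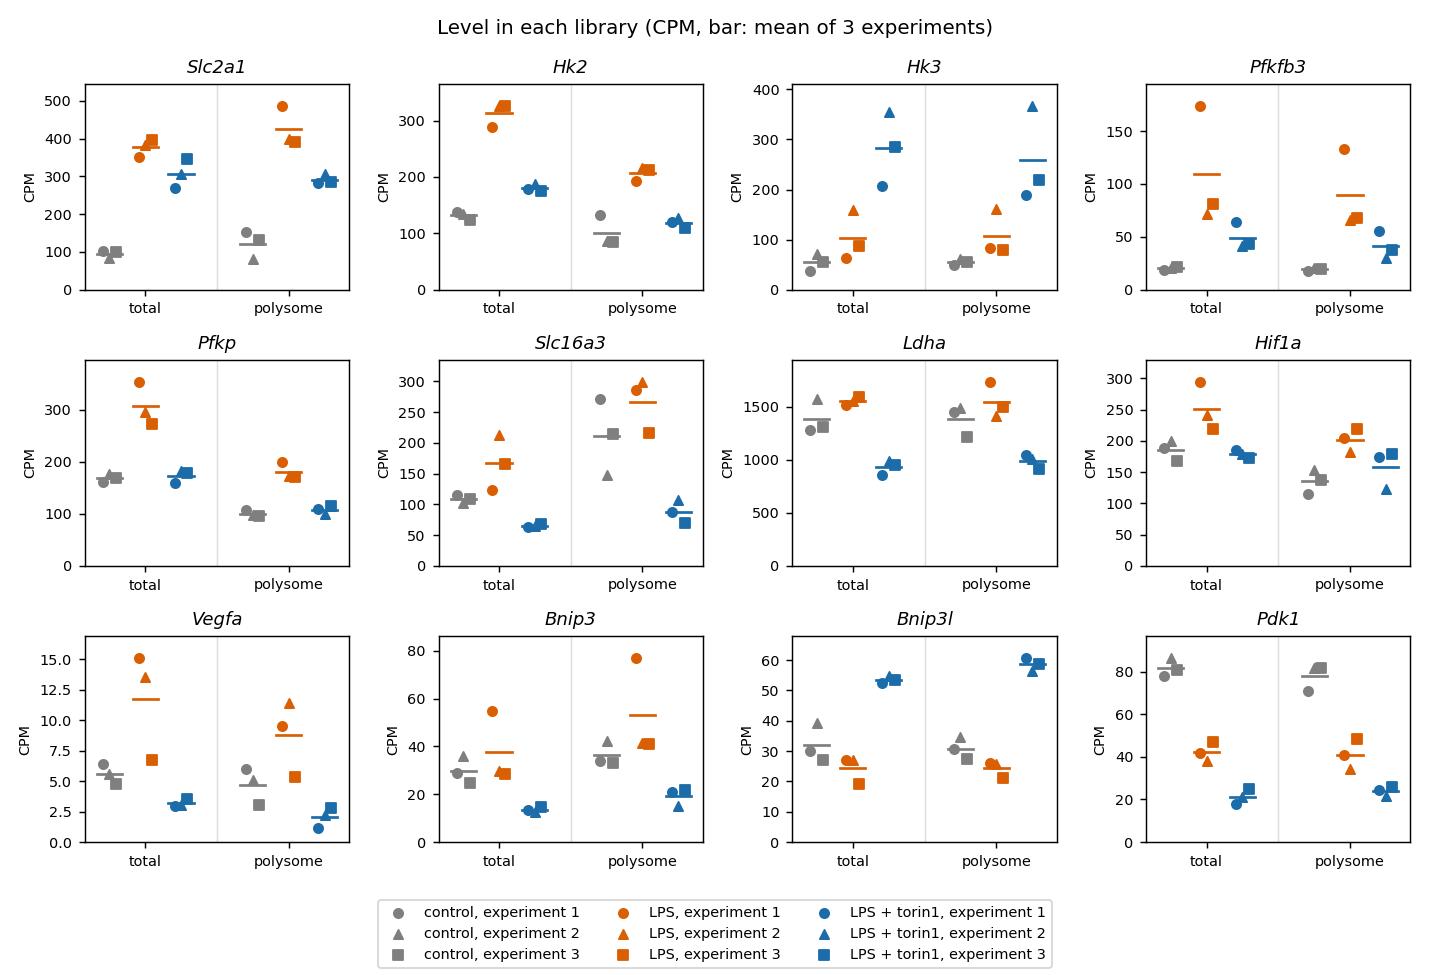
Level in each library (y axis, CPM, linear from 0) of 12 genes in total mRNA (left of each panel) and polysome-associated mRNA (right), with control in grey, LPS in orange and LPS with torin1 in blue. Symbols mark the experiments and bars the means of 3. Hk3 and Bnip3l have their highest libraries with torin1, and Ldha, Slc16a3, Vegfa, Bnip3 and Pdk1 their lowest.

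Hif1a, the gene of the oxygen-regulated subunit, was at 188, 199 and 167 CPM in the controls, 294, 241 and 219 after LPS and 185, 178 and 172 after LPS with torin1 in total mRNA. The LPS libraries lay above both other groups, which overlapped. Its changes were 0.44 ± 0.12 (SE, adjusted p = 0.0132), −0.50 ± 0.12 (SE, adjusted p = 0.0134) and −0.05 ± 0.12 (SE, adjusted p = 0.760). In polysomes its levels were 114.5, 154 and 138 CPM in the controls, 204, 182 and 219 after LPS and 175, 123.1 and 178 after LPS with torin1, and the changes 0.58 ± 0.18 (SE, adjusted p = 0.0322), −0.35 ± 0.18 (SE, adjusted p = 0.225) and 0.23 ± 0.18 (SE, adjusted p = 0.353). HIF-1α protein was not measured in these data. For Hif1a, calls were lost in polysome-associated mRNA for LPS against control without experiment 1, at 0.46, and in polysome-associated mRNA for torin1 against LPS without experiment 1, 2 or 3, at −0.41, −0.26 and −0.36 (adjusted p from 0.251 to 0.573). With only LPS and torin1 libraries in the model, its torin1 change in polysome-associated mRNA did not pass either (adjusted p = 0.263). Egln1, the prolyl hydroxylase gene PHD2, fell with LPS, changing by −0.64 ± 0.15 (SE, adjusted p = 0.00449) in total and by −0.62 ± 0.25 (SE, adjusted p = 0.0800) in polysome-associated mRNA. Its torin1 change against LPS did not pass, and against control it was −0.79 and −0.71. For Egln1, calls were lost in polysome-associated mRNA for LPS against control without experiment 1 or 3, at −0.32 and −0.63, and in polysome-associated mRNA for torin1 against control without experiment 1 or 3, at −0.49 and −0.61 (adjusted p from 0.254 to 0.548). Vhl passed in no comparison, with log2 fold changes between −0.09 and 0.09.

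Among the genes known as HIF targets, P4ha1, a collagen prolyl hydroxylase subunit, and Vegfa, the vascular growth factor, rose with LPS and were lower with torin1 than with LPS alone. P4ha1 was at 154, 153 and 149.9 CPM in the controls, 351, 301 and 299 after LPS and 124.4, 147 and 121.2 after LPS with torin1 in total mRNA and at 87.6, 80.4 and 92.8 CPM in the controls, 222, 164 and 222 after LPS and 98.3, 76.9 and 94.6 after LPS with torin1 in polysome-associated mRNA. LPS libraries were above all others in both. The changes in total mRNA were 1.06 ± 0.11 (SE, adjusted p = 3.58e-05), −1.28 ± 0.11 (SE, adjusted p = 9.54e-05) and −0.22 ± 0.11 (SE, adjusted p = 0.120), and in polysome-associated mRNA 1.22 ± 0.17 (SE, adjusted p = 0.000320), −1.17 ± 0.17 (SE, adjusted p = 0.00193) and 0.05 ± 0.16 (SE, adjusted p = 0.838). For P4ha1, the call was lost in total mRNA for torin1 against control without experiment 1 or 3, at −0.17 and −0.18 (adjusted p from 0.329 to 0.411).

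Vegfa was scarce, at 6.41, 5.61 and 4.77 CPM in the controls, 15.1, 13.5 and 6.70 after LPS and 2.93, 3.06 and 3.52 after LPS with torin1. All libraries with torin1 were below all control libraries, and experiment 3 with LPS was close to the control range. The changes were 1.07 ± 0.27 (SE, adjusted p = 0.00806), −1.89 ± 0.28 (SE, adjusted p = 0.00115) and −0.82 ± 0.28 (SE, adjusted p = 0.0332). Its polysome-associated levels were 5.96, 5.11 and 3.04 CPM in the controls, 9.55, 11.4 and 5.37 after LPS and 1.13, 2.19 and 2.83 after LPS with torin1, with overlap between control and LPS and changes of 0.90 ± 0.38 (SE, adjusted p = 0.0951), −2.09 ± 0.40 (SE, adjusted p = 0.00822) and −1.19 ± 0.39 (SE, adjusted p = 0.0371). For Vegfa, the call was lost in polysome-associated mRNA for torin1 against control without experiment 1, at −0.70 (adjusted p = 0.342).

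Bnip3 and Bnip3l encode related mitophagy receptors, both known HIF targets, and they changed in opposite directions with torin1 against LPS. Bnip3 was at 28.8, 35.9 and 24.9 CPM in the controls, 54.8, 29.6 and 28.4 after LPS and 13.4, 12.7 and 14.8 after LPS with torin1 in total mRNA. LPS experiment 1 stood apart from the other LPS libraries, which lay within the control range, and all torin1 libraries were below the rest. The changes were 0.33 ± 0.24 (SE, adjusted p = 0.278), −1.46 ± 0.24 (SE, adjusted p = 0.00204) and −1.13 ± 0.24 (SE, adjusted p = 0.00320). Bnip3 in polysomes was at 33.8, 42.4 and 33.0 CPM in the controls, 76.9, 41.4 and 41.1 after LPS and 21.2, 15.0 and 21.9 after LPS with torin1 and changed by 0.54 ± 0.26 (SE, adjusted p = 0.132), −1.45 ± 0.26 (SE, adjusted p = 0.00621) and −0.91 ± 0.26 (SE, adjusted p = 0.0196). For Bnip3, the call was lost in polysome-associated mRNA for LPS against control without experiment 1, at 0.13 (adjusted p = 0.806). Its log2 fold change with LPS was 0.82 without experiment 2. Bnip3l was 32.1 ± 6.46 CPM in the controls, 24.5 ± 4.47 after LPS and 53.5 ± 1.04 after LPS with torin1 in total mRNA (SD, n = 3). It changed by −0.39 ± 0.16 (SE, adjusted p = 0.0725) with LPS and by 1.13 ± 0.16 (SE, adjusted p = 0.00104) for torin1 against LPS. In polysome-associated mRNA these were −0.34 ± 0.15 (SE, adjusted p = 0.101) and 1.27 ± 0.15 (SE, adjusted p = 0.00104), and all torin1 libraries exceeded all others in both RNA types. For Bnip3l, the call was lost in polysome-associated mRNA for LPS against control without experiment 1 or 3, at −0.41 and −0.32 (adjusted p from 0.281 to 0.361).

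The 7 pentose phosphate genes had log2 fold changes between −0.73 and 0.59 over both RNA types and the 3 comparisons. G6pdx encodes glucose 6-phosphate dehydrogenase, which controls entry into the oxidative branch, and was at 327, 437 and 379.5 CPM in the controls, 438, 368 and 386 after LPS and 307, 348 and 336 after LPS with torin1 in total mRNA. Control and LPS libraries overlapped, and the torin1 libraries lay below those with LPS. Its changes were 0.06 ± 0.13 (SE, adjusted p = 0.731), −0.27 ± 0.13 (SE, adjusted p = 0.137) and −0.21 ± 0.13 (SE, adjusted p = 0.202). In polysomes G6pdx was at 256, 279 and 256 CPM in the controls, 275, 232 and 306 after LPS and 261, 219.8 and 265.4 after LPS with torin1, the groups overlapped, and none of the changes passed (0.04, −0.12 and −0.08). For G6pdx, calls were lost in total mRNA for torin1 against LPS without experiment 1 or 3, at −0.14 and −0.30, and in total mRNA for torin1 against control without experiment 2 or 3, at −0.14 and −0.22 (adjusted p from 0.353 to 0.467). In one model over all libraries the difference between torin1 and control did not pass (adjusted p = 0.251). G6pdx overlaps Ikbkg on the other strand.

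Pgls and Pgd, the later enzymes of the oxidative branch, did not pass after LPS in total mRNA (−0.19 and −0.17), while Pgd fell in polysome-associated mRNA, changing by −0.34 ± 0.14 (SE, adjusted p = 0.0961). For torin1 against control Pgd was lower, with changes of −0.20 ± 0.12 (SE, adjusted p = 0.200) in total and −0.39 ± 0.14 (SE, adjusted p = 0.0568) in polysome-associated mRNA, and for torin1 against LPS it did not pass (−0.03 and −0.05). Pgd, with the experiment as a block, passed as lower for LPS against control (adjusted p = 0.161) in total mRNA. Pgls, with the experiment as a block, passed as lower for LPS against control (adjusted p = 0.166) in total mRNA. Polysome-associated Pgls was at 95.3, 66.9 and 73.2 CPM in control cells and 39.6, 85.4 and 34.9 with torin1, so that experiment 2 went the other way from experiments 1 and 3. The change of −0.56 ± 0.33 (SE, adjusted p = 0.218) became −1.18 (adjusted p = 0.00105) without experiment 2. For Pgls, the call was lost in polysome-associated mRNA for torin1 against control without experiment 1 or 3, at −0.22 and −0.36 (adjusted p from 0.567 to 0.784). For Pgd, calls were lost in total mRNA for torin1 against control without experiment 2 or 3, at −0.17 and −0.15, and in polysome-associated mRNA for LPS against control without experiment 1, at −0.24, and in polysome-associated mRNA for torin1 against control without experiment 3, at −0.39 (adjusted p from 0.302 to 0.539).

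In the non-oxidative branch, Taldo1, the transaldolase gene, fell with LPS, changing by −0.48 ± 0.14 (SE, adjusted p = 0.0175) in total and by −0.47 ± 0.15 (SE, adjusted p = 0.0373) in polysome-associated mRNA and did not pass for torin1 against LPS (0.03 and −0.26). Against control it was −0.44 ± 0.14 (SE, adjusted p = 0.0237) and −0.73 ± 0.15 (SE, adjusted p = 0.00404). The epimerase gene Rpe rose with LPS by 0.52 ± 0.13 (SE, adjusted p = 0.00939) and 0.59 ± 0.15 (SE, adjusted p = 0.0110), and fell with torin1, changing by −0.61 ± 0.13 (SE, adjusted p = 0.00797) and −0.45 ± 0.15 (SE, adjusted p = 0.0706). Rpia, the isomerase gene, did not pass after LPS and was lower with torin1 than in control cells, with changes of −0.34 ± 0.12 (SE, adjusted p = 0.0355) in total and −0.28 ± 0.13 (SE, adjusted p = 0.122) in polysome-associated mRNA. Against LPS its change with torin1 was −0.25 ± 0.12 (SE, adjusted p = 0.141) in total mRNA. Tkt, the transketolase gene, changed with LPS by −0.20 ± 0.16 (SE, adjusted p = 0.322) in total mRNA, which did not pass, and by −0.45 ± 0.24 (SE, adjusted p = 0.179) in polysome-associated mRNA. Tkt, with the experiment as a block, passed as lower for LPS against control (adjusted p = 0.204) in total mRNA. Torin1 against control gave −0.34 ± 0.16 (SE, adjusted p = 0.0976) and −0.50 ± 0.24 (SE, adjusted p = 0.126). Tkt in polysomes was at 702, 409.5 and 613 CPM in control cells and 330.3, 546 and 340.0 with torin1, and experiment 2 again went the other way. Without experiment 2 its polysome-associated changes were −0.68 with LPS and −0.97 for torin1 against control. For Taldo1, the call was lost in polysome-associated mRNA for LPS against control without experiment 3, at −0.38 (adjusted p = 0.293). For Rpe, the call was lost in polysome-associated mRNA for torin1 against LPS without experiment 1 or 3, at −0.39 and −0.43 (adjusted p from 0.320 to 0.438). For Rpia, calls were lost in total mRNA for torin1 against LPS without experiment 3, at −0.17, and in polysome-associated mRNA for torin1 against control without experiment 1 or 3, at −0.21 and −0.28 (adjusted p from 0.428 to 0.517). For Tkt, calls were lost in total mRNA for torin1 against control without experiment 3, at −0.31, and in polysome-associated mRNA for LPS against control without experiment 1 or 3, at −0.27 and −0.37, and in polysome-associated mRNA for torin1 against control without experiment 1 or 3, at −0.21 and −0.32 (adjusted p from 0.338 to 0.697).

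Whether polysome association changed beyond the amount of mRNA was asked of all 18 libraries together, in an edgeR model with a term for the treatment effect that differs by RNA type. A gene passed with an adjusted p of at most 0.25 and a fold of at least 1.2. None of the 37 genes passed in any of the 3 comparisons, and neither did any of the 11243 genes (0% higher and 0% lower in each). An unadjusted p under 0.05 was reached by 0 of the 37 genes in each comparison and by 44, 110 and 145 of all genes. The counts over all genes lie below the share of 0.05 that a test without any true change would give. DESeq2, an analysis of partial variance and the model with a block for each lysate also called 0 of the 37. Over all genes DESeq2 called 1, 7 and 1, the analysis of partial variance 8, 20 and 6 and the block 0, 25 and 3. The log2 difference between the change in polysome-associated and in total mRNA ranged from −0.29 to 0.21 for LPS against control, from −0.37 to 0.30 for torin1 against LPS and from −0.54 to 0.26 for torin1 against control. A p that misses the threshold does not show that both RNA types changed alike. The study used anota2seq, which was not run here, and reported that translation efficiency changed for a subset of mRNAs. The lack of calls here therefore does not show that translation was unchanged. Without experiment 2, Slc16a3 (−0.86, adjusted p = 0.246) and Pgls (−1.01, adjusted p = 0.180) passed as lower in torin1 against control, among 430 genes of the whole table. So a gene that passed in 1 RNA type only, such as Slc16a3 after LPS, was not shown to differ between them.

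**Figure D4:**
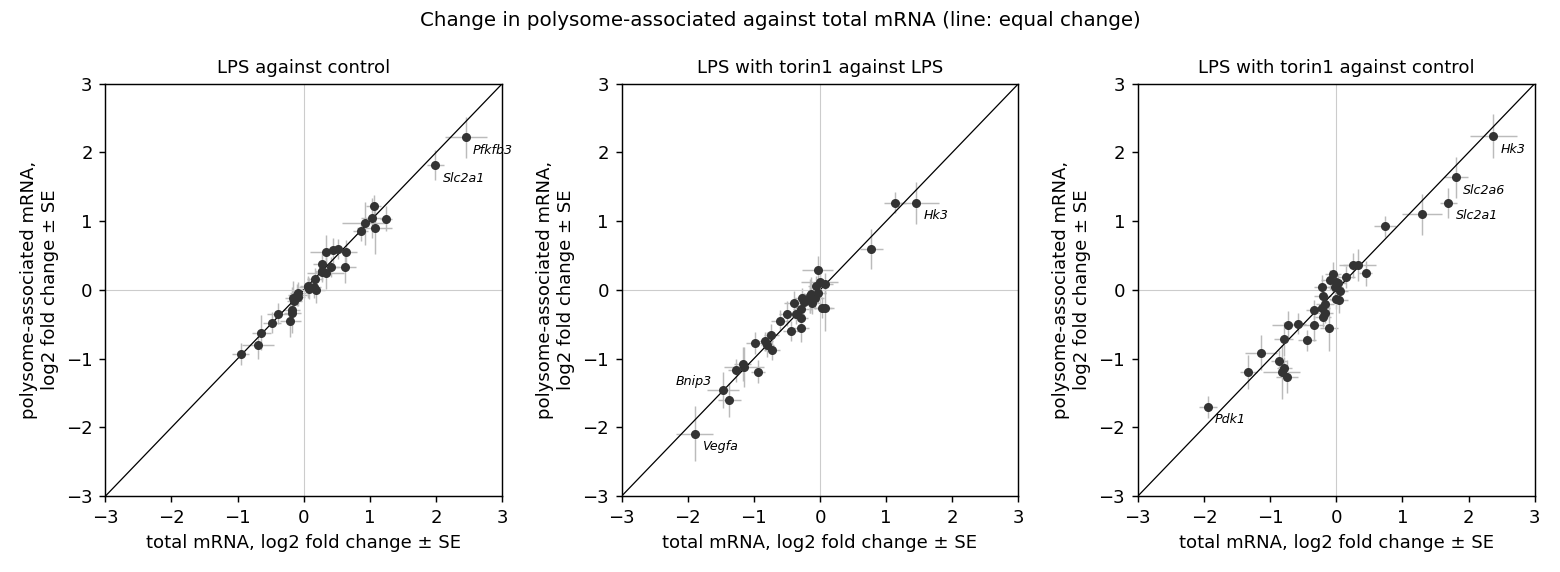
Log2 fold change in polysome-associated mRNA (y axis) against that in total mRNA (x axis) for the 37 genes in each comparison, with standard errors as bars. The line marks equal change. Genes with a log2 fold change beyond 1.4 in total mRNA are named, and the points scatter along the line.

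The genes differed from one another in how far they were found in polysomes. In control cells the log2 ratio of polysome-associated to total CPM in the lysates of experiments 1, 2 and 3 was 1.24, 0.53 and 0.99 for Slc16a3, 1.15, 0.63 and 0.78 for Pgls and 0.75, 0.53 and 0.66 for Taldo1, the highest means of the 37. It was −0.81, −0.93 and −0.69 for P4ha1, −0.59, −0.86 and −0.81 for Pfkp and −0.25, −0.79 and −0.92 for Hk1, the lowest. Each RNA type was scaled on its own, so these ratios rank genes and are not shares of mRNA in polysomes. They are a description without a test.

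Of 36 other genes of glucose metabolism, 29 were in the table. In total mRNA 2 were higher and 12 lower after LPS, 7 were higher and 10 lower for torin1 against LPS and 4 were higher and 15 lower for torin1 against control, with medians of −0.10, −0.06 and −0.29. The counts in polysome-associated mRNA were 3 higher and 9 lower, 6 higher and 6 lower and 3 higher and 12 lower. Of all genes, 32.2% and 34.3%, 27.3% and 26.4% and 33.1% and 33.6% were higher and lower in these comparisons in total mRNA, and 26.4% and 28.7%, 20.3% and 18.2% and 28.5% and 29.7% in polysome-associated mRNA. Shpk, the sedoheptulose kinase gene, fell with LPS to 0.604, 0.900 and 1.02 CPM from 2.79, 3.50 and 2.55 in total mRNA and changed by −1.80 ± 0.29 (SE, adjusted p = 0.000577). The glucose carrier gene Slc2a8 changed by −1.33 ± 0.29 (SE, adjusted p = 0.00405) with LPS and by 1.04 ± 0.30 (SE, adjusted p = 0.0248) for torin1 against LPS. Prps2, which makes phosphoribosyl pyrophosphate from ribose 5-phosphate, was −1.49 ± 0.12 (SE, adjusted p = 7.07e-06) for torin1 against control, with 26.8, 31.4 and 34.5 against 79.3, 90.8 and 89.5 CPM. Pdk2, Eno2 and Pgam2 also passed with large changes, at levels of at most 3.96 CPM. Pdk2 changed by −1.64 and −2.51 with LPS in total and polysome-associated mRNA and by 1.49 and 2.26 for torin1 against LPS. With LPS it was at 0.0355, 0.150 and 0.124 CPM in total mRNA, so these changes rest on few reads. Eno2 changed by 1.09 and 1.31 for torin1 against LPS, and Pgam2 by −1.02 in polysome-associated mRNA of the same comparison.

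Of 29 other genes of the HIF pathway, 28 were in the table. In total mRNA 12 were higher and 4 lower after LPS, 7 were higher and 12 lower for torin1 against LPS and 10 were higher and 11 lower for torin1 against control (medians 0.27, −0.26 and −0.15). The counts in polysome-associated mRNA were 9 higher and 6 lower, 6 higher and 12 lower and 8 higher and 13 lower. The shares of all genes are those given for the glucose metabolism list. Individual targets moved in different directions. Ddit4, which encodes the mTOR inhibitor REDD1, was at 0.486, 0.636 and 0.585 CPM in the controls, 10.9, 6.12 and 2.72 after LPS and 0.230, 0.235 and 0.209 after LPS with torin1, changing by 3.52 ± 0.46 (SE, adjusted p = 0.000146) with LPS and −4.85 ± 0.53 (SE, adjusted p = 0.000230) for torin1 against LPS. Adm, the adrenomedullin gene, was scarce, at 1.74, 1.47 and 1.54 CPM with LPS and 0.197, 0.101 and 0.139 with torin1. It was lower with torin1, by a change of −3.40 ± 0.41 (SE, adjusted p = 0.000411) against LPS. Hilpda, a lipid droplet protein gene, was instead at 8.17, 10.6 and 7.75 CPM in the controls, 97.2, 84.5 and 63.7 after LPS and 137, 166 and 188 after LPS with torin1, which was 4.21 ± 0.20 (SE, adjusted p = 3.23e-07) for torin1 against control. Angptl4, a lipase inhibitor gene, was at 6.53, 6.29 and 7.37 CPM in the controls and 0.533, 0.360 and 0.710 after LPS. It fell with LPS, changing by −3.65 ± 0.26 (SE, adjusted p = 3.09e-06) and stayed low with torin1 (−3.96 against control). Ier3, an early response gene, rose with LPS by 4.16 ± 0.31 (SE, adjusted p = 4.59e-06). Rora, which encodes a nuclear receptor, was at 0.284, 0.360 and 0.0926 CPM with LPS and 3.62, 4.23 and 5.09 with torin1, a change of 4.12 ± 0.41 (SE, adjusted p = 0.000183).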

How the data were processed

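Total mRNA and polysome-associated mRNA were measured by RNA sequencing in 9 lysates of RAW264.7 cells, giving 18 libraries. The authors made stranded paired-end libraries after depletion of ribosomal RNA, aligned reads to GRCm38 by Hisat2, and used featureCounts with Ensembl models to count reads on genes. The deposited table holds these raw counts, not normalized, for protein-coding genes with a count in every library. The strand setting of the counting is not given in the sources used here. Genes with named pseudogenes or with a coding gene on the other strand may have gained or lost reads.

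The counts were tested with edgeR 4.0.16 (limma 3.58.1, R 4.3.3), in place of the anota2seq method used in the study. Libraries were scaled by TMM, and all 9 libraries of an RNA type entered 1 quasi-likelihood model with treatment as the factor, without a block. P-values were adjusted by Benjamini-Hochberg over 11243 genes with a threshold of 0.25. Translation efficiency was tested as a treatment effect that differs by RNA type over all 18 libraries, and needed a fold of at least 1.2. The p-values measure the spread between libraries of one treatment and RNA type, each from a different experiment. The translation efficiency model without a block takes the libraries of a lysate as independent, though they share that lysate. Libraries of the same experiment number deviated together in total mRNA (correlation of deviations from the group means 0.127 to 0.540 over 9 pairs, mean 0.417), so the experiment numbers pair those samples, and the blocked result is given where it changed a call count. Levels are CPM after the same scaling. Levels between genes were compared per kilobase of the union of exons (GENCODE M21), and promoters were searched for exact motif matches on both strands.

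Alternatives were the experiment number as a block, DESeq2 1.42.0, its size factors (RLE), a threshold of 0.05, a minimum of 10 counts in every library, a fit of both RNA types together, a fit without the third treatment, an analysis of partial variance, leaving out each experiment in turn, and the longest transcript as gene length. The genes and lists were chosen with earlier results of these data known. All 37 genes are named. Values in every library are given for the 3 genes with the largest absolute log2 fold change among those that passed in each comparison and for Slc2a1, Hk2, Pfkfb3, Pfkp, Pkm, Ldha, Hif1a, Vegfa and G6pdx. Of the 2 companion lists, up to 3 genes of largest change per comparison are named.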

Additional observations from a re-analysis of the deposited data

How the results depend on the processing

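None of the calls of the 37 genes changed direction under any alternative run. Over the 10 alternatives, 17 of the 21 calls after LPS in total mRNA held each time, as did 18 of 25 for torin1 against LPS and 18 of 24 for torin1 against control. In polysome-associated mRNA 10 of 23, 14 of 21 and 13 of 23 did. No such tally was made over all genes, so these counts do not set the 37 genes apart from other called genes. At a threshold of 0.05, polysome-associated mRNA kept 13 calls after LPS, where 32.5% of all genes were called, and 15 for torin1 against control, where 35.1% were. It kept 15 for torin1 against LPS, where 13.8% of all genes were called. When each experiment was left out in turn, calls in polysome-associated mRNA ranged from 14 to 23 for LPS against control (34.7% to 64.5% of all genes) and from 15 to 26 for torin1 against control (37% to 67.8%). Those for torin1 against LPS ranged from 14 to 25 (10.6% to 46.1%). For translation efficiency with torin1 against control they ranged from 0 to 2. Fewer samples remain in those fits. In polysome-associated mRNA the experiment numbers did not pair every sample (correlation of deviations −0.141 at the lowest, mean 0.321). With the experiment number as a block its calls were 16 higher and 7 lower after LPS, 3 and 20 for torin1 against LPS, and 7 and 18 for torin1 against control, while 62.8%, 49.7% and 66.3% of all genes were called. The calls added were Taldo1 and Pkm as lower for torin1 against LPS (adjusted p = 0.196 and 0.149), and Hk1 as higher and Aldoc as lower for torin1 against control (adjusted p = 0.197 and 0.207). In total mRNA the blocked counts were 20 and 10, 3 and 23, and 9 and 19, with 73.1%, 64% and 73.5% of all genes called. Counting error and the spread between experiments were not separated.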
